A study of Mus musculus with 40 samples.

Results

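The genes examined encode 10 mouse proteins that detect RNA or DNA inside cells, relay that detection, or limit it: Ifih1, Ddx58, Dhx58, Tlr3, Zbp1, Mavs, Irf3, Eif2ak2, Adar and Trex1. They were taken as every probe set on the array that names 1 of these symbols and no other gene, which gave 20 of the 45141 probe sets and 10 of the 17097 genes that have a probe set of their own. The study measured RNA of B16F10, a melanoma line of C57BL/6 mice, on Affymetrix 3′ arrays, 1 array per sample, and asked what epigenetic drugs do to the tumour and its surroundings. Its 40 arrays fall into 6 groups. OTX015 cultures (4 arrays) and control cultures (4) are B16F10 cells grown in dishes. OTX015 tumours (10) and control tumours of that experiment (11) grew from B16F10 cells injected under the skin of C57black6J mice that were 8 weeks old, with OTX015 given by mouth. Guadecitabine tumours (6) and their own control tumours (5) were grown in the same way, with the drug given into the abdomen. All groups come from 1 cell line. OTX015 blocks the BET bromodomain proteins, which read acetylated histones, and guadecitabine blocks DNA methyltransferases. The labels give no dose, length of treatment or sex. They call the tumour samples melanocyte cells and mention no sorting. All 9 melanocyte markers examined lay above background in every group, whereas 10 of 10 macrophage markers did so in OTX015 tumours and in their control tumours, and 1 of 10 in cultures, so the tumour samples were not melanoma cells alone. In such bulk samples, fewer cells of a type and less RNA per cell cannot be told apart.

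Cells detect foreign or misplaced nucleic acid through several routes. The helicases MDA5 (Ifih1) and RIG-I (Ddx58) bind double-stranded RNA in the cytosol and signal through the mitochondrial adaptor MAVS to the transcription factor IRF3, which switches on type I interferon genes. LGP2 (Dhx58) is a related helicase that tunes these sensors, and TLR3 reads double-stranded RNA in endosomes. ZBP1 binds Z-form nucleic acid and can start necroptosis. PKR (Eif2ak2) halts translation when it binds double-stranded RNA, ADAR1 (Adar) edits such RNA so that it is not sensed, and TREX1 degrades cytosolic DNA. Interferon raises the transcription of most of these genes, while Mavs and Irf3 are mainly expressed without it. Drugs that act on DNA methylation are known for exposing cells to double-stranded RNA from endogenous retroviruses, and melanoma cells can respond to it through these sensors.

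The stretches around the start sites are shown for the 3 sensor genes that fell together in OTX015 cultures and, beside them, for Eif2ak2, which carries the same letters and was not called there. RefSeq windows (assembly GRCm38.p6) run from 250 bases before to 50 after each start, on the strand of the gene, and 8 of the 10 genes were matched to 11 such windows. Zbp1 and Dhx58 are named only. Capitals mark the core of the interferon-stimulated response element (ISRE), searched on both strands as GAAA and GAAA with any 2 bases between them.
Ifih1, chr2:62646206-62646505, minus strand: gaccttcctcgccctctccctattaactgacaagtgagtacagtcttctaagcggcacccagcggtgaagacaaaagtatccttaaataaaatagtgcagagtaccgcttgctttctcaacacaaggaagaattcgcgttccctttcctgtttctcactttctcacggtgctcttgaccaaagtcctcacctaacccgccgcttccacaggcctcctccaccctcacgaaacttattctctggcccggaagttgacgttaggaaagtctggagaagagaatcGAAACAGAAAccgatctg
Ddx58, chr4:40239776-40240075, minus strand: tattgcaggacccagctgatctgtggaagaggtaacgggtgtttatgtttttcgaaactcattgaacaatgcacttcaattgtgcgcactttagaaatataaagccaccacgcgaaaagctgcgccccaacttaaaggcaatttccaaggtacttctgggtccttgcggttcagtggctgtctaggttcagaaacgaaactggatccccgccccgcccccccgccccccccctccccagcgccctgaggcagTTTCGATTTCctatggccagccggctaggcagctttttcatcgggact
Tlr3, chr8:45410331-45410630, minus strand: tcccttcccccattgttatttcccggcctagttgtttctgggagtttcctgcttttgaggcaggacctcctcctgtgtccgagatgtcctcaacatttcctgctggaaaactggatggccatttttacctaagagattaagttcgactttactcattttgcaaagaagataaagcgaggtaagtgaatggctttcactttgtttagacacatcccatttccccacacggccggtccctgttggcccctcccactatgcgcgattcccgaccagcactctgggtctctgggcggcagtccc
Eif2ak2, chr17:78882523-78882822, minus strand: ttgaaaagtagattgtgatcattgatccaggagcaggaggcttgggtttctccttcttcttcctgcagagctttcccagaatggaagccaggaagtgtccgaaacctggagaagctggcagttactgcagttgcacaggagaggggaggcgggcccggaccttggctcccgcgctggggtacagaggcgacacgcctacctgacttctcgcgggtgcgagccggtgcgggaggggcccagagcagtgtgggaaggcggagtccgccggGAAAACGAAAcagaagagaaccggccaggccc
The ISRE letters began 33 bases into the Ifih1 transcript, 3 bases into the Ddx58 transcript (on the opposite strand) and 19 bases into the Eif2ak2 transcript. These 3 genes were the only ones of the 8 with an exact match, and 3.99% of the 27025 genes in the table have one. Near matches were not searched for, so the other genes may still hold variants of this element. The Tlr3 window had no ISRE match and held the NF-kB letters (GGG and TTTCC with any 2 bases between) at position -211, as 1.89% of genes do on either strand. The Eif2ak2 window and 1 of the 3 windows of Adar held the GAS letters TTCNNNGAA, which overlap neither motif and occur in 9.55% of genes. None of these 3 motifs lay in the windows of Mavs, Irf3 or Trex1. A match is a run of letters and not a measured binding site.

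Several of these genes gave weak signals, which bears on every value below. Background was set at 4.46 on the log2 scale of the deposited values, the 95th percentile of the means of 83 probe sets for odorant and pheromone receptor genes, which mainly olfactory tissues use. By their mean over 40 arrays, 8 of the 20 probe sets lay above it. They were 1 of 3 for Ddx58, 1 of 2 for Tlr3, the 1 for Mavs, 2 of 3 for Irf3, 2 of 3 for Adar and the 1 for Trex1. No probe set of Ifih1, Dhx58, Zbp1 or Eif2ak2 did, although Ifih1 and Eif2ak2 had means above it in some groups. Signals of different probe sets depend on the probes, so levels are compared only within a probe set. Where a gene has several, its brightest is meant unless an identifier is given.

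With all 40 arrays brought to 1 distribution (background 4.474), Ifih1 had its lowest group mean in OTX015 cultures, 3.13 ± 0.08 (SD, n = 4), against 4.69 ± 0.12 (n = 4) in control cultures. The tumour groups lay between: 4.15 ± 0.30 (n = 10) with OTX015 against 4.59 ± 0.37 (n = 11) in its controls, and 4.06 ± 0.34 (n = 6) with guadecitabine against 3.87 ± 0.28 (n = 5) in its controls. Among the tumour groups, neighbours in this order lay within 1 SD of each other except for the control tumours of the OTX015 experiment. The values by array also show Eif2ak2 above background mainly in cultures and Irf3 lowest in OTX015 tumours.

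**Figure D1:**
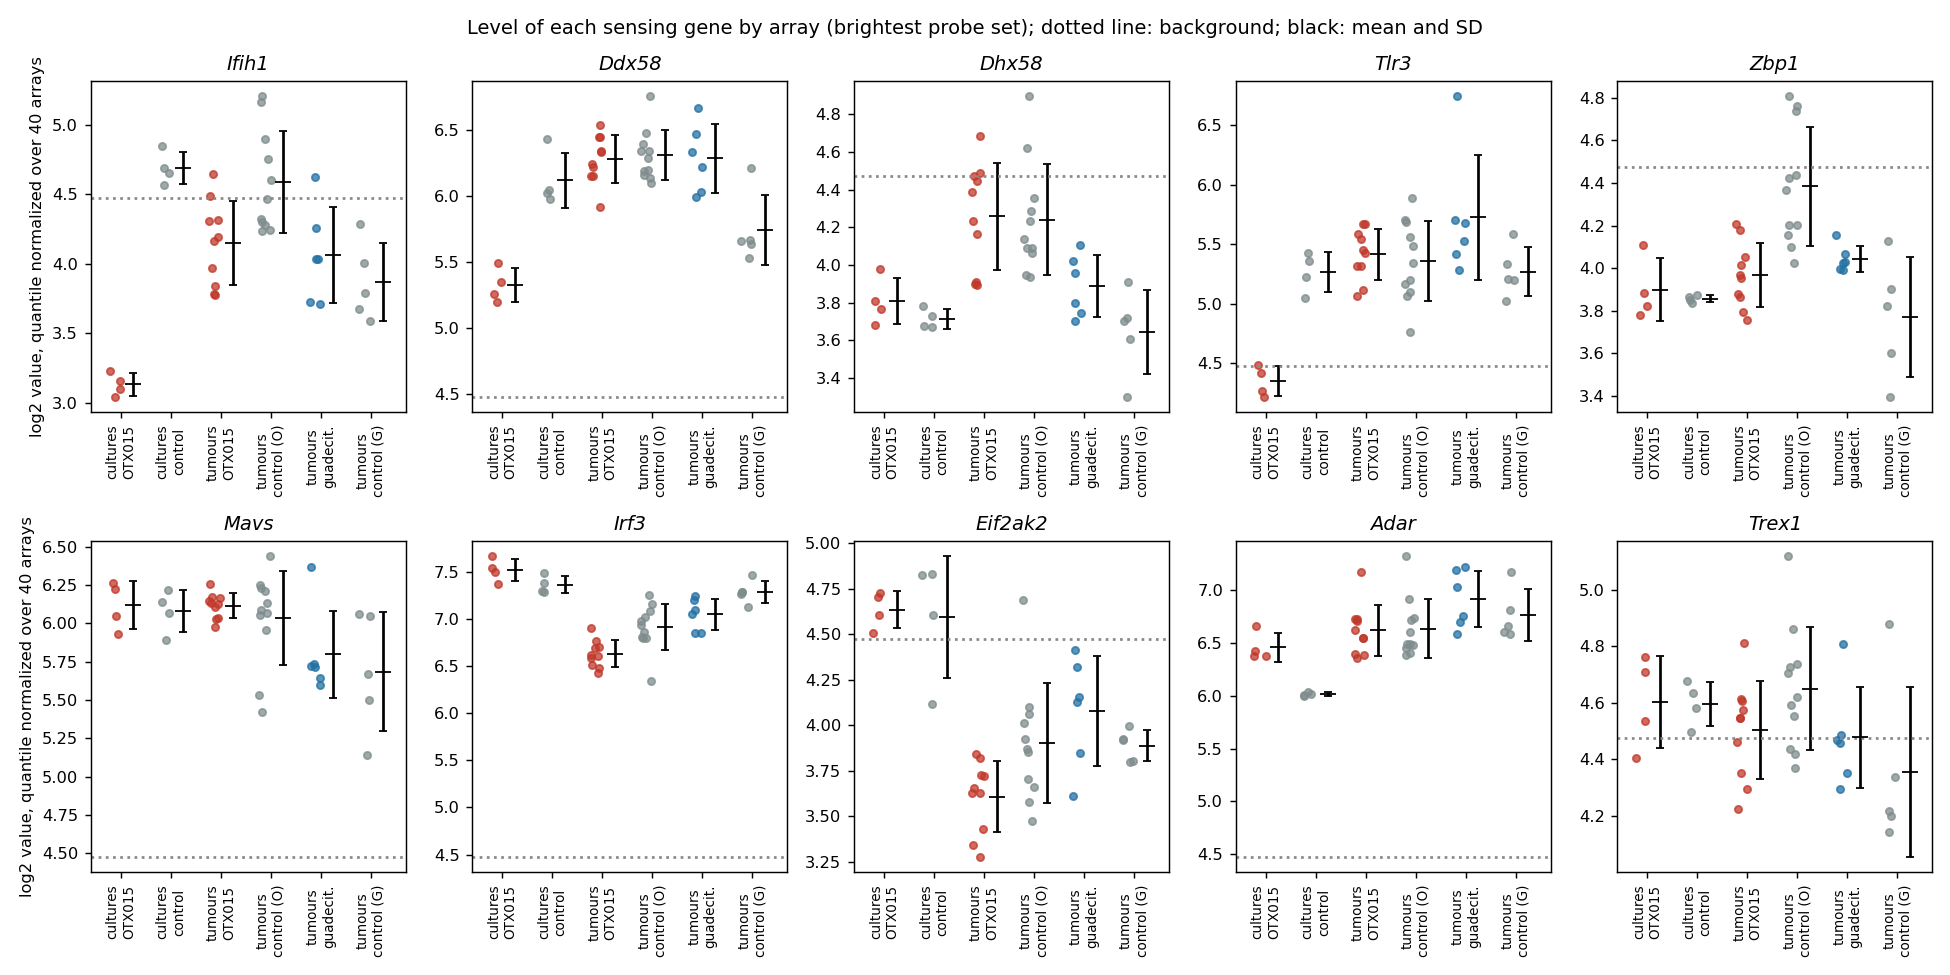
Level of each gene by array (log2, quantile normalized over 40 arrays, brightest probe set), with 1 panel per gene and its own vertical axis. Points are arrays, the black mark and bar are the mean and SD of a group, the dotted line is background at 4.474, and controls O and G belong to the OTX015 and guadecitabine experiments. Ifih1, Ddx58 and Tlr3 are low in OTX015 cultures; Dhx58 and Zbp1 lie near or below the line in every group.

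In OTX015 cultures, the RNA sensors Ifih1, Ddx58 and Tlr3 were lower than in control cultures, and Adar was higher by its brightest probe set. Of the 20 probe sets, 6 passed the test (limma, adjusted p under 0.05 over all 45141 probe sets), 1 higher and 5 lower. Much of the transcriptome passed, with 29.1% of all probe sets called, 13.7% higher and 15.3% lower. The members' share of 30% is near the background. The median log2 difference was -0.04 over the 20 probe sets and 0.01 over all probe sets.

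Ifih1, whose product MDA5 binds long double-stranded RNA, measured 3.03, 3.10, 3.20 and 3.12 in OTX015 cultures, against 5.00, 4.67, 4.72 and 4.78 in control cultures. Every treated array lay below every control array by more than 1 log2 unit and below background. The log2 difference was -1.68 ± 0.08 (SE), 3.20-fold lower as measured (limma, adjusted p = 1.13e-07). With treated values set to background the fall is at least 1.26-fold.

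Ddx58, which encodes RIG-I, the sensor of short RNA with a 5′ triphosphate, measured 5.64, 5.51, 5.36 and 5.43 in OTX015 cultures, against 6.33, 6.85, 6.28 and 6.37 in control cultures. The groups did not overlap, and all 8 arrays were above background. Between them lay a log2 difference of -0.97 ± 0.12 (SE; limma, adjusted p = 0.000127). A dimmer Ddx58 probe set, 1456890_PM_at, also fell, with 2.60 to 2.73 in OTX015 cultures against 3.32 to 3.85 in control cultures. The third, 1446457_PM_at, had overlapping ranges of 3.91 to 4.03 in OTX015 cultures and 3.87 to 4.07 in control cultures and was not called. Both dim probe sets lay under background in both groups, so the statement for Ddx58 rests on its brightest probe set.

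Tlr3, the endosomal receptor, measured 4.42, 4.23, 4.27 and 4.51 in OTX015 cultures, against 5.63, 5.77, 5.17 and 5.43 in control cultures. Again no treated array reached a control array, and 3 of the 4 treated arrays were below background. The log2 difference was -1.14 ± 0.12 (SE; limma, adjusted p = 3.52e-05), and with values under background set to it the fall is at least 2.04-fold. Its second probe set also passed (-0.71), under background in both groups. The other sensors gave no call: Dhx58 ranged from 3.65 to 3.95 in OTX015 cultures against 3.65 to 3.74 in control cultures, and Zbp1 from 3.76 to 4.10 in OTX015 cultures against 3.81 to 3.86 in control cultures, all under background. For these a change could not be seen at this signal.

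The adaptor and factor behind the sensors gave no call in cultures and lay well above background. Mavs averaged 6.40 ± 0.15 in OTX015 cultures and 6.42 ± 0.21 in control cultures (SD, n = 4 each), a log2 difference of -0.02 ± 0.11 (SE; limma, adjusted p = 0.928). Irf3 averaged 7.83 ± 0.09 in OTX015 cultures and 7.70 ± 0.08 in control cultures (SD, n = 4 each), a log2 difference of 0.13 ± 0.07 (SE; limma, adjusted p = 0.234). The suffix x_at of this Irf3 probe set marks designs whose probes may also match other transcripts.

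Among the effectors and regulators, Adar measured 6.96, 6.70, 6.68 and 6.70 in OTX015 cultures, against 6.39, 6.41, 6.27 and 6.33 in control cultures. All treated arrays lay above all control arrays, and the log2 difference was 0.41 ± 0.08 (SE; limma, adjusted p = 0.00184). Its second probe set above background, 1425405_PM_a_at, pointed the other way, at -0.25 ± 0.11 (SE), and was not called (limma, adjusted p = 0.118). The mean of the 3 Adar probe sets differed by 0.05 (limma, adjusted p = 0.642), so the direction for Adar rests on 1 probe set. Eif2ak2 ranged from 4.54 to 4.78 in OTX015 cultures against 4.13 to 5.01 in control cultures, and Trex1 from 4.42 to 4.77 in OTX015 cultures against 4.54 to 4.76 in control cultures. Both genes' groups overlapped and neither was called.

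**Figure D2:**
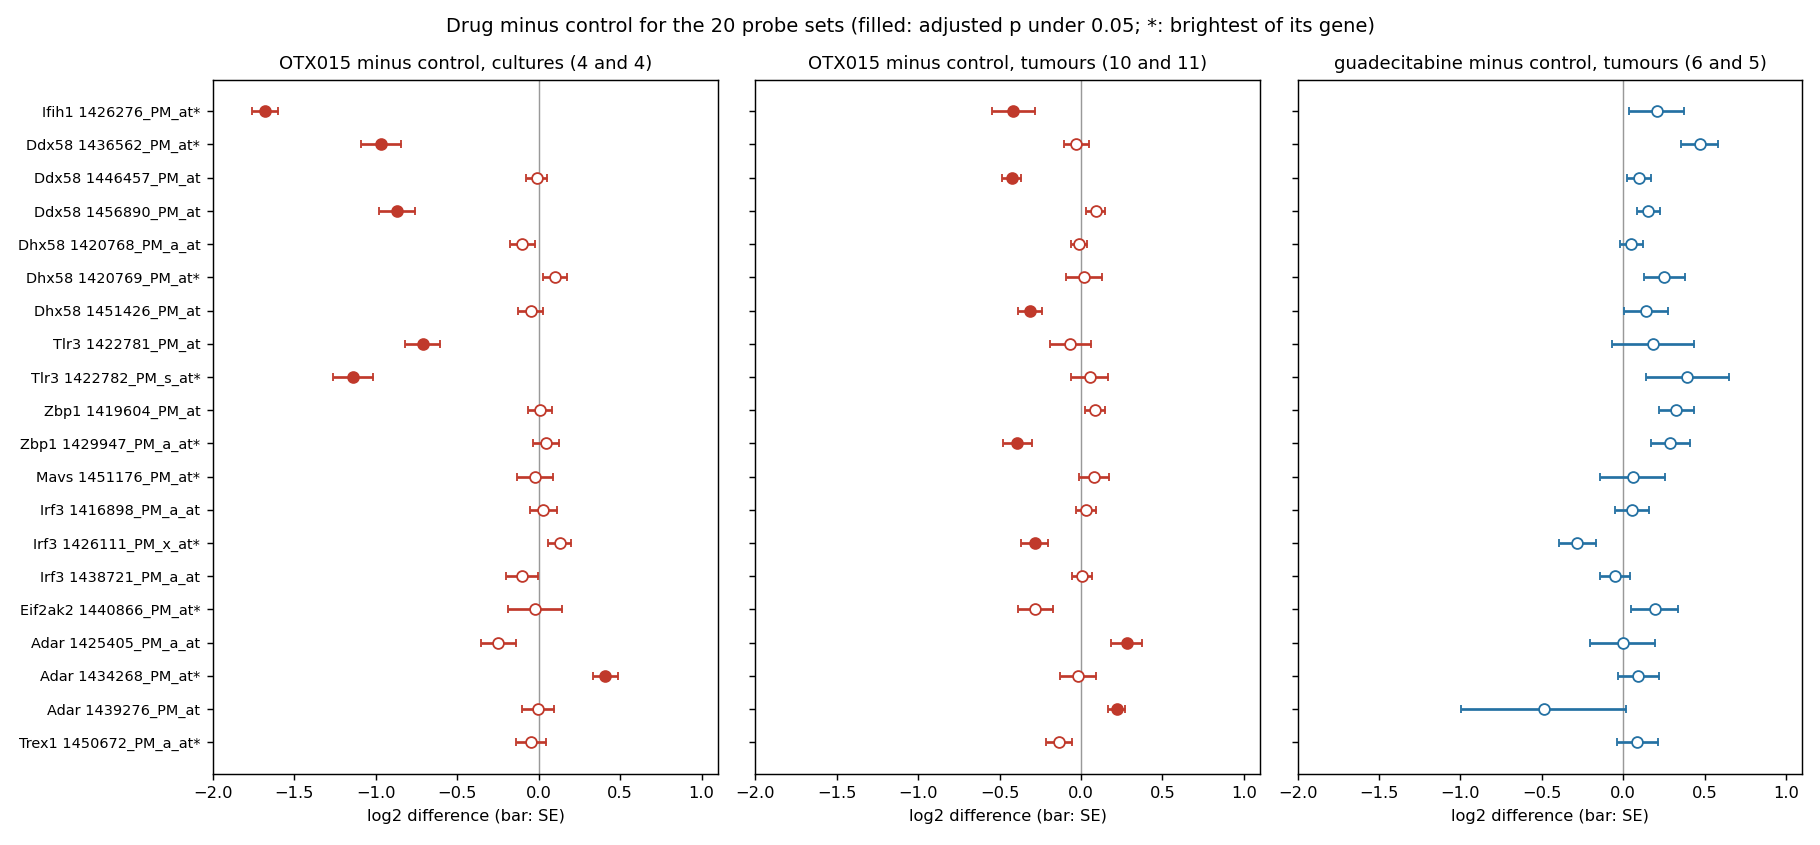
Log2 difference, drug minus control, of the 20 probe sets in OTX015 cultures, OTX015 tumours and guadecitabine tumours, each against its own controls; bars are SE, filled points passed the test and an asterisk marks the brightest probe set of a gene. Filled points number 6, 7 and 0 from left to right, and the Ifih1 point in cultures lies farthest left at -1.68.

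The same comparison moved partner genes in both directions. Of 12 measured interferon-induced targets, 9 fell, 1 rose and 2 were not called, with a median of -1.44. Ifit2 (-2.35), Cxcl10 (-1.29), Rsad2 (-2.08) and Ifit1 (-2.25) had the smallest p-values in this list. The treated means of Ifit1, Ifit3 and Mx1 lay under background, so the sizes of their falls were not measured in full. Usp18, which restrains interferon signalling, rose by 0.46. Of 22 RNA sensing partners, 5 rose and 4 fell. Trim25, a ubiquitin ligase that activates RIG-I in human cells, changed by -1.49 and Rnf135, another such ligase, by -0.96, while the helicase gene Dhx9 rose by 0.72. Among 13 DNA sensing partners 1 rose and 5 fell. Xrcc5, a subunit of the Ku complex, changed by -1.60, Ddx41 by -0.96 (treated mean under background) and Sting1, the adaptor of the DNA sensor cGAS, by -0.60, whereas Cgas itself rose by 0.33.

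Of 11 genes for clearance and editing of nucleic acid, 4 rose and 1 fell, led by Rnaseh2c, a subunit of RNase H2, at 0.86. Of 8 PKR and stress kinase partners, 1 rose and 3 fell: Ppp1r15a, which reverses the translation block that PKR imposes, changed by -1.43, Ddit3 by -1.26 and Atf4 by -0.79. Among 4 ZBP1 cell death partners 2 fell, namely Mlkl, the executor of necroptosis, at -1.95, and Casp8 at -1.13. Among 7 interferon regulatory and STAT factors 2 rose and 1 fell: Irf9, part of the complex that binds the ISRE, changed by -1.37, with a treated mean of 3.33 under background. By gene, 37.2% of all genes were called in this comparison, 16.1% higher and 21% lower. All 3 nuclear-retained RNAs rose, with mean list levels of 7.07 to 7.63 in OTX015 cultures and 5.89 to 6.09 in control cultures. Their part in these results was not tested.

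In OTX015 tumours, Ifih1 was lower than in control tumours, with a treated mean under background, while the brightest probe sets of Ddx58 and Tlr3 were not called. After quantile normalization of the 21 arrays, 7 of the 20 probe sets passed, 2 higher and 5 lower, where 16.7% of all probe sets were called, 8.60% higher and 8.07% lower. Only 3 of the 7 had a group mean above background (Ifih1, Irf3 and 1 Adar probe set). Of the 83 receptor probe sets that mark background, 11 were called, so calls under background are made here too. The deposited values of OTX015 tumours lie lower throughout, by a median of -0.206 over all probe sets. On those values 14 of the 20 were called, 0 higher and 14 lower, where 59.4% of all probe sets were called. Over the whole array 2.15% of the called probe sets were higher, against 51.6% after normalization.

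Ifih1 ranged from 3.74 to 4.56 with a median of 4.12 in OTX015 tumours, against 4.18 to 5.09 with a median of 4.40 in control tumours. The groups overlapped, with 6 of 10 treated tumours below every control and 1 above the control mean. The log2 difference was -0.42 ± 0.13 (SE; limma, adjusted p = 0.0309). The treated mean of 4.09 lay under background and the control mean was 4.51, so the size of the fall was not measured in full. Leaving out single arrays ended this call in 7 of 21 fits, namely replicates 1, 4, 7 and 10 of the OTX015 tumours and 1, 2 and 5 of the control tumours. Adjusted p across these 21 fits ran from 0.0164 to 0.0589.

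Ddx58 ranged from 5.77 to 6.38 with a median of 6.13 in OTX015 tumours, against 5.95 to 6.60 with a median of 6.14 in control tumours. These ranges overlapped, and the log2 difference was -0.03 ± 0.08 (SE; limma, adjusted p = 0.848). The dim probe set 1446457_PM_at, which was not called in cultures, had 3.36 to 3.73 with a median of 3.56 in OTX015 tumours against 3.81 to 4.27 with a median of 3.96 in control tumours. All 10 treated tumours lay below all 11 controls, and the log2 difference was -0.43 ± 0.06 (SE; limma, adjusted p = 2.74e-05), with both groups under background. Tlr3 ranged from 4.95 to 5.54 with a median of 5.31 in OTX015 tumours, against 4.67 to 5.74 with a median of 5.22 in control tumours, and was not called (log2 difference 0.05 ± 0.11, SE).

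Zbp1 ranged from 3.73 to 4.15 with a median of 3.92 in OTX015 tumours, against 3.98 to 4.71 with a median of 4.30 in control tumours. No treated tumour reached the control mean, and 7 of 10 lay below every control, giving a log2 difference of -0.39 ± 0.09 (SE; limma, adjusted p = 0.00392), with both means under background. Its second probe set gave 0.08 with no call, and the mean of the 2 probe sets was not called (-0.15, limma, adjusted p = 0.12). For Dhx58 a dim probe set, 1451426_PM_at, fell by 0.31, while the brightest gave 0.02 and was not called.

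Irf3 ranged from 6.27 to 6.75 with a median of 6.46 in OTX015 tumours, against 6.19 to 7.11 with a median of 6.78 in control tumours. All 10 treated tumours lay below the control mean, although 1 control tumour was lower than all of them, and the log2 difference was -0.29 ± 0.09 (SE; limma, adjusted p = 0.0239). The call was lost with arrays centred on their medians (-0.25, limma, adjusted p = 0.106) and with the mean of the 3 Irf3 probe sets (-0.08, limma, adjusted p = 0.32), of which 1416898_PM_a_at gave 0.03. Mavs ranged from 5.83 to 6.11 in OTX015 tumours and 5.29 to 6.29 in control tumours and was not called.

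Adar did not pass in tumours by its brightest probe set, with a log2 difference of -0.02 ± 0.11 (SE; limma, adjusted p = 0.934). Its 2 other probe sets rose, 1425405_PM_a_at by 0.28 ± 0.09 and 1439276_PM_at by 0.22 ± 0.05 (SE; limma, adjusted p = 0.0453 and 0.0060). The first of these was lost in 13 of 21 fits without 1 array (replicates 1, 3, 5, 7, 8, 9 and 10 of the OTX015 tumours and 1, 2, 4, 6, 9 and 11 of the control tumours), with adjusted p from 0.0182 to 0.0874, and the second lies under background. On the deposited values the 2 gave 0.0010 and 0.06. Eif2ak2 ranged from 3.26 to 3.80 in OTX015 tumours against 3.45 to 4.60 in control tumours and was not called (-0.28 ± 0.11, SE; limma, adjusted p = 0.0776), nor was Trex1 (-0.14 ± 0.08, SE; limma, adjusted p = 0.263).

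Markers of macrophages and of all leukocytes fell in the same tumours, while most markers of other immune cells were not called. Of 10 macrophage markers 8 fell, with a median of -1.12 over the list, and 4 of 4 markers of all leukocytes fell, with a median of -1.04. Of 9 T and NK cell markers 2 fell, and of 5 dendritic cell markers 1 rose. None of 4 B cell or 5 neutrophil markers was called. Over all arrays, 1 T and NK cell marker and 0 B cell markers lay above background. The mean log2 level of the macrophage list, over arrays on 1 scale, ran from 4.85 to 6.91 with a median of 6.60 in OTX015 tumours, against 6.33 to 8.30 with a median of 7.20 in control tumours. Their part in the falls of Ifih1, Zbp1 and Irf3 was not tested. Of 12 interferon-induced targets, 6 fell and 1 rose (Ifnb1, under background), with a median of -0.35. Usp18 (-0.97), Cmpk2 (-0.67), Mx1 (-0.36) and Ifit3 (-0.70) had the smallest p-values, with Mx1 under background in both groups and Usp18 under it in OTX015 tumours. Few partner genes passed elsewhere: 1 higher and 3 lower of 22 RNA sensing partners, 1 and 2 of 13 DNA sensing partners, 0 and 1 of 11 clearance and editing genes, 0 and 1 of 8 PKR partners. None of the 4 ZBP1 partners or 7 interferon regulatory and STAT factors passed (limma, adjusted p under 0.05), where 16.8% of all genes were called, 8.93% higher and 7.83% lower. Among those that fell were Ifi205, a mouse gene of the family of DNA-binding PYHIN proteins, at -1.18, Pld4, an endosomal nuclease, at -0.53, and Unc93b1, which carries nucleic acid receptors to endosomes, at -0.46, whereas Tlr8 rose by 0.57. The lower mean of Ifi205, Pld4 and Tlr8 lay under background in each case.

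**Figure D3:**
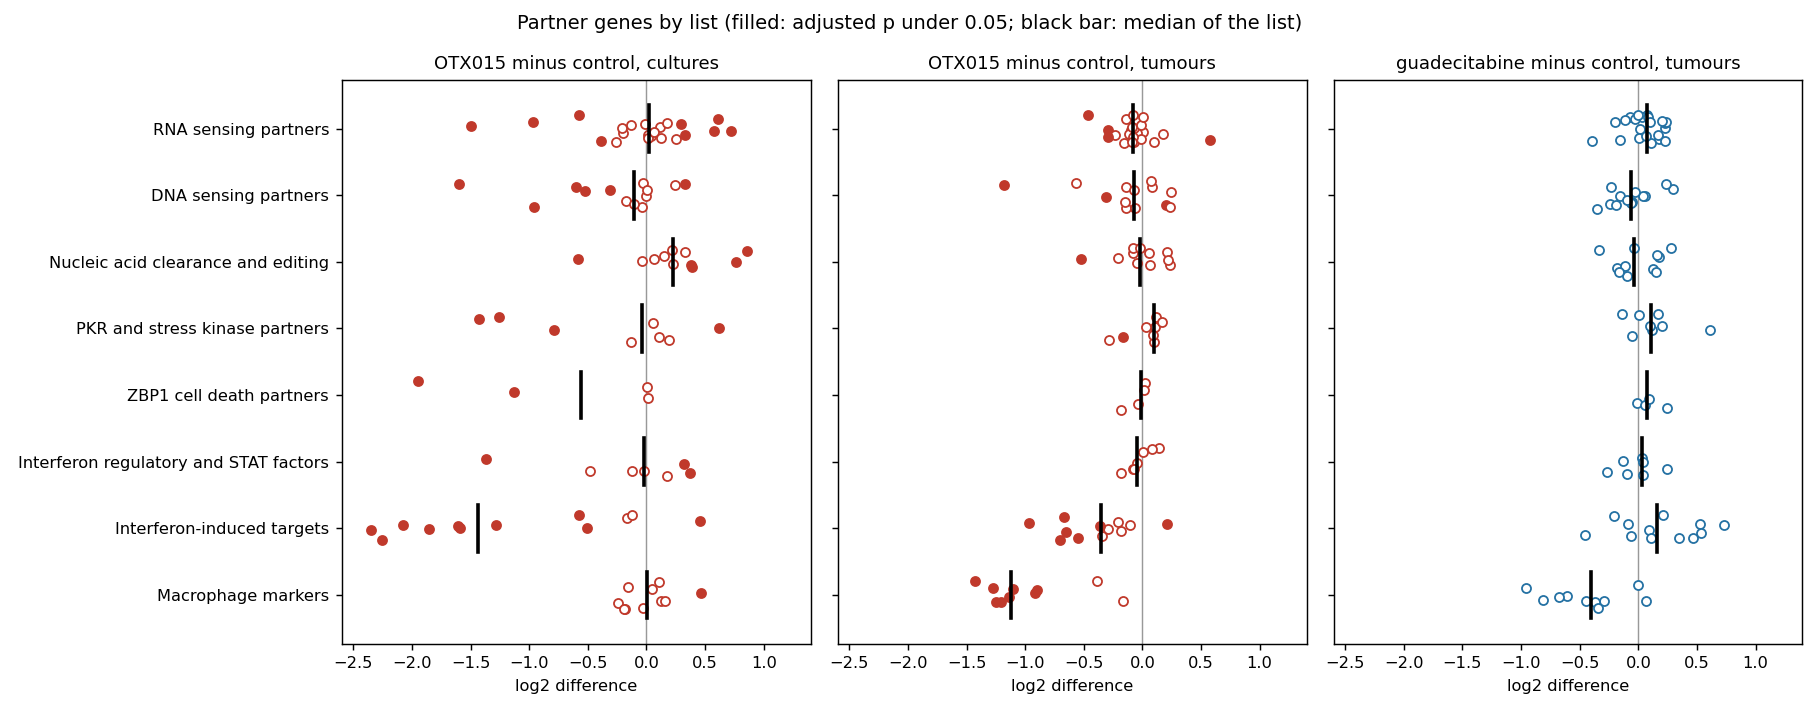
Log2 differences, drug minus control, of partner genes and macrophage markers, 1 point per gene (brightest probe set), in OTX015 cultures, OTX015 tumours and guadecitabine tumours. Filled points passed the test, and black bars are list medians. The interferon-induced targets have a median of -1.44 in cultures and -0.35 in OTX015 tumours, the macrophage markers are shifted in OTX015 tumours (-1.12), and no point is filled for guadecitabine.

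Whether OTX015 acted differently on these genes in tumours and in cultures was tested as the difference of the 2 differences, over 29 arrays after quantile normalization. It passed for 8 of the 20 probe sets, 5 higher and 3 lower in tumours relative to cultures, where 25.9% of all probe sets passed, 13.4% higher and 12.6% lower. Ifih1 changed by -0.44 in tumours and -1.53 in cultures, a difference of 1.09 ± 0.24 (SE; limma, adjusted p = 0.00069). Both treated means of Ifih1 lay under background. With every value under background set to it, on the scale of all 40 arrays, its changes were -0.19 in tumours and -0.21 in cultures, so a difference between the 2 settings was not measurable above background. Ddx58 changed by -0.03 in tumours and -0.81 in cultures (difference 0.78 ± 0.15, SE; limma, adjusted p = 0.000197). Tlr3 changed by 0.06 in tumours and -0.92 in cultures (difference 0.98 ± 0.21, SE; limma, adjusted p = 0.000627), and with values set to background in the same way the difference was 0.84.

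For Ddx58 and Tlr3 the difference in tumours lay above that in cultures, and no fit without 1 array ended these calls for the brightest probe sets. The dim second probe sets of Ddx58 (1456890_PM_at, 0.96) and Tlr3 (0.64), under background in tumours and cultures, passed in the same direction. Zbp1 and Irf3 went the other way, with differences of -0.45 and -0.44, as did the dim Ddx58 probe set 1446457_PM_at (-0.43). The Zbp1 call was lost in 10 of 29 fits without 1 array (replicates 1, 2, 5 and 7 of the OTX015 tumours, 3 and 4 of the OTX015 cultures, and any control culture), with adjusted p from 0.0205 to 0.111, and without the arrays of low spread over probe sets (-0.38, limma, adjusted p = 0.0574). All group means of this Zbp1 probe set lay under background. With the mean of probe sets per gene neither Zbp1 (-0.18, limma, adjusted p = 0.258) nor Irf3 (-0.13, limma, adjusted p = 0.339) was called, nor was Irf3 with arrays centred on their medians (-0.39, limma, adjusted p = 0.138). The Irf3 call was lost without replicate 1 of the OTX015 cultures or 1 or 4 of the control cultures, with adjusted p from 0.00206 to 0.0713. That of the dim Tlr3 probe set was lost without replicate 1 or 4 of the OTX015 cultures or 1 or 2 of the control cultures, with adjusted p from 0.0104 to 0.0809. On deposited values 9 passed, 4 higher and 5 lower, where 41.3% of all probe sets passed. Adar, higher in cultures only by its brightest probe set, did not differ past the threshold (-0.46 ± 0.19, SE; limma, adjusted p = 0.0683).

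**Figure D4:**
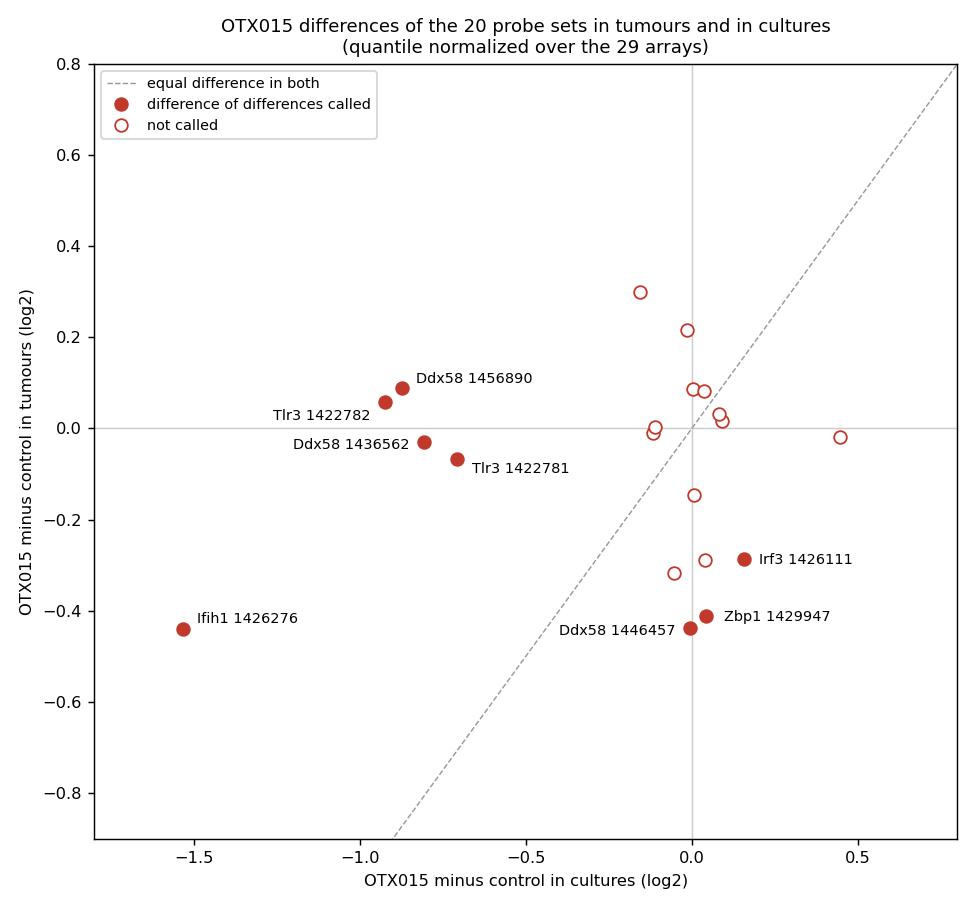
OTX015 minus control in tumours (vertical axis, log2) against OTX015 minus control in cultures (horizontal axis, log2), 1 point per probe set, with filled and named points where the difference of the 2 passed the test. Ifih1 lies at -0.44 in tumours and -1.53 in cultures; the Tlr3 and Ddx58 points on the left have tumour values near 0.

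Guadecitabine tumours showed no called difference from their control tumours for any of the 20 probe sets (limma; 4 at an unadjusted p under 0.05), where 0% of all probe sets were called. The lowest adjusted p was 0.605 among the members and 0.12 over the array. The median log2 difference was 0.12 over the 20 probe sets and 0.03 over all. The fit of all 6 groups together, which takes its error from all 40 arrays, called 2: Ddx58 (limma, adjusted p = 0.00217) and the dim Zbp1 probe set 1419604_PM_at (limma, adjusted p = 0.049). The share of all probe sets called in that fit is not given here, so these 2 calls cannot be read as particular to these genes.

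Ddx58 ranged from 6.17 to 6.53 with a median of 6.23 in guadecitabine tumours and measured 5.62, 5.76, 5.78, 5.82 and 6.21 in control tumours. Of the 6 treated tumours 3 lay above every control and all lay above the control mean. The log2 difference was 0.47 ± 0.11 (SE; limma, adjusted p = 0.605). Ifih1 ranged from 3.81 to 4.637 with a median of 4.11 in guadecitabine tumours, against 3.66, 3.76, 3.89, 4.10 and 4.36 in control tumours. These ranges overlapped, and the log2 difference was 0.21 ± 0.17 (SE; limma, adjusted p = 0.80). Tlr3 ranged from 5.22 to 6.92 with a median of 5.71 in guadecitabine tumours, against 5.16 to 5.71 in control tumours, with 1 treated tumour far above the rest.

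Zbp1 gave 0.29 and 0.33 for its 2 probe sets, both under background, with all 6 treated tumours above the control mean in each. Irf3 ranged from 6.61 to 7.27 in guadecitabine tumours, against 7.17 to 7.48 in control tumours, with 4 of 6 treated tumours below every control (log2 difference -0.28 ± 0.11, SE; limma, adjusted p = 0.716). Mavs, Trex1, Eif2ak2, Dhx58 and the brightest Adar probe set differed by 0.06 to 0.25. The Adar probe set 1439276_PM_at was spread far more widely here, from 2.45 to 5.35 in guadecitabine tumours and 2.98 to 4.91 in control tumours, than in the other tumours, where, on their quantile normalized scale, it ran from 2.43 to 2.98 with OTX015 and 2.22 to 2.53 without. Nuclear-retained RNA also spread widely in the guadecitabine experiment, from 5.23 to 8.56 in treated and 6.64 to 8.37 in control tumours. Its part in these values was not tested. No partner gene of the lists passed either, and the interferon-induced targets had a median of 0.16.

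The 2 drugs' differences in tumours were set against each other over 32 arrays after quantile normalization. The contrast passed for 3 of the 20 probe sets, all lower for OTX015, where 4.59% of all probe sets passed, 2.40% higher and 2.19% lower. Ddx58 changed by -0.03 with OTX015 and 0.53 with guadecitabine, a difference of -0.56 ± 0.15 (SE; limma, adjusted p = 0.0314). This call was lost in 5 of 32 fits without 1 array: replicate 3 of the guadecitabine tumours and replicates 1, 2, 3 and 4 of their control tumours, with adjusted p from 0.00383 to 0.0785, and also without the arrays of low spread over probe sets (-0.40, limma, adjusted p = 0.0856). Zbp1 changed by -0.41 with OTX015 and 0.27 with guadecitabine (difference -0.68 ± 0.15, SE; limma, adjusted p = 0.00969), and the dim Ddx58 probe set 1446457_PM_at by -0.44 and 0.10, both under background in all 4 groups. Ifih1 changed by -0.43 with OTX015 and 0.19 with guadecitabine, and the difference of -0.62 ± 0.23 (SE) did not pass (limma, adjusted p = 0.121).

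Control tumours of the OTX015 experiment differed from control cultures for 11 of the 20 probe sets, 4 higher and 7 lower, where 43.1% of all probe sets were called, 20.7% higher and 22.4% lower. All 10 macrophage markers were higher in tumours, with a median of 4.06, where 49.2% of genes were called, 20.2% higher and 28.9% lower. Irf3 ranged from 6.22 to 7.12 with a median of 6.97 in control tumours, against 7.62, 7.64, 7.75 and 7.80 in control cultures. No tumour reached a culture, and the log2 difference was -0.84 ± 0.13 (SE; limma, adjusted p = 0.000114). With the control tumours of the guadecitabine experiment in their place the Irf3 difference was -0.36 (limma, adjusted p = 0.00371). Eif2ak2 ranged from 3.61 to 4.73 with a median of 3.94 in control tumours, against 4.13, 4.67, 4.96 and 5.01 in control cultures, a log2 difference of -0.71 ± 0.17 (SE; limma, adjusted p = 0.00437), with 10 of 11 tumours under background and a fall of at least 1.16-fold when they are set to it.

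Dhx58 and Zbp1 were higher in tumours, by 0.60 ± 0.14 and 0.58 ± 0.13 (SE; limma, adjusted p = 0.00256 and 0.0024), with all 11 tumours above all 4 cultures for each gene. All 4 means lay under background, and the 83 receptor probe sets had a median of 0.203 in this comparison, with 40 of them called. With the control tumours of the guadecitabine experiment in their place the 2 differences were 0.03 and 0.01, so they do not hold in both sets of control tumours. With the control tumours of the OTX015 experiment, all 3 Adar probe sets were called, in opposing directions. The brightest gave 0.23, 1425405_PM_a_at -0.44 and the dim 1439276_PM_at -0.22 (limma, adjusted p = 0.0153, 0.0112 and 0.0127). Also called were Irf3 1416898_PM_a_at (-0.69) and, under background, Irf3 1438721_PM_a_at (-0.28), Ddx58 1456890_PM_at (-0.63) and Dhx58 1451426_PM_at (0.61). Unlike the brightest Dhx58 probe set, 1451426_PM_at was also higher with the control tumours of the guadecitabine experiment (0.48, limma, adjusted p = 0.00267). By their brightest probe sets Ifih1, Ddx58, Tlr3, Mavs and Trex1 were not called. Of these, 3 passed with the other control tumours: Ifih1 at -0.84 (limma, adjusted p = 0.000949), Ddx58 at -0.62 (limma, adjusted p = 0.00695) and Mavs at -0.63 (limma, adjusted p = 0.019).

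Within tumour groups the level of Ifih1 was related to no other member gene past the threshold. Of 18 relations computed (9 genes in 10 OTX015 tumours and in 11 control tumours), 0 passed after adjustment. The closest was Tlr3 in control tumours, with Pearson's r = 0.77 (permutation p = 0.00592, adjusted p = 0.107) and Spearman's rho = 0.72 (permutation p = 0.0163, adjusted p = 0.294). Without the 2 tumours farthest from the median r was 0.71. In OTX015 tumours the same pair had r = 0.30 (permutation p = 0.394, adjusted p = 0.603). Next came Trex1 in control tumours, with the opposite sign (Pearson's r = -0.68, permutation p = 0.0202, adjusted p = 0.182). Ifih1 means were 4.09 in OTX015 tumours and 4.51 in control tumours, under and just above background. With so few tumours and such signals, relations could be missed.

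The genes with the most similar pattern over the 40 arrays, which share group differences and scaling, were named by Pearson's r on the normalized values as a description. For Ifih1 they were Rbm43 (0.90), Ifit2 (0.88) and Cmpk2 (0.86), and Ifit2 and Cmpk2 belong to the interferon-induced targets. For Ddx58 they were Thap4 (0.88), Kxd1 (0.87) and Txnl4b (0.87), and for Tlr3 Kdelr1 (0.88), Cers2 (0.88) and Slc18b1 (0.85). Zbp1 was most like Syce2 (0.81), Unc93b1 (0.80) and the leukocyte gene Hcls1 (0.80), where the means of Zbp1, Syce2 and Hcls1 lay under background. Irf3 was most like Plekhm1 (0.86). Trex1 had no gene above r = 0.72.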

How the data were processed

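The authors deposited log2 values of 45141 probe sets. The submitters' processing notes list RMA and the Transcriptome Analysis Console without versions, and no source says which arrays shared a run. RMA adjusts background, equalizes distributions and summarizes probes. Arrays of OTX015 tumours have lower means, so comparisons that include them were quantile normalized; the others use the values as deposited. This step was chosen with that shift known. Probe sets were named from GEO's array annotation, with symbols and places from RefSeq (GRCm38.p6).

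Groups were compared with limma 3.58.1 in R 4.3.3 (lmFit, eBayes, two-sided, Benjamini-Hochberg over 45141 probe sets, called under 0.05). List genes use the brightest probe set of each of 17097 genes, with the same adjustment. Relations were tested by permutation. Setting values under background to it gives sizes with no test and was chosen after seeing the data. The script was tested on simulated data. Up to 4 genes per list were named by smallest p, and others with known roles were added after their values were seen. Members and lists were chosen with earlier results of these data known. The number of arrays limits precision. Labels do not say whether replicates are separate animals or cultures, so p-values measure only the spread between these samples. Replicate numbers are shared between groups, and the main fits did not pair samples by them.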

Additional observations from a re-analysis of the deposited data

Results flagged for a closer look

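In 7 of 100 groups of values 1 sample stood far from the others by Dixon's test, where chance gives about 1 in 20. The 11 control tumours of the OTX015 experiment were not put to this test. In cultures these were Ddx58 at 6.85 in replicate 2 of the control cultures, where the others lay between 6.28 and 6.37, the dim Ddx58 probe set 1456890_PM_at at 2.60 in replicate 3 of the OTX015 cultures (others 2.72 to 2.73), and Adar at 6.96 in replicate 1 of the OTX015 cultures (others 6.68 to 6.70). In OTX015 tumours Adar stood at 7.02 in replicate 4 (others 6.21 to 6.57), an array of low spread over probe sets. In guadecitabine tumours Tlr3 stood at 6.92 in replicate 4 (others 5.22 to 5.79), Mavs at 6.52 in replicate 2 (others 5.58 to 5.87) and Irf3 at 6.61 in replicate 3 (others 7.04 to 7.27), the last also an array of low spread.

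The OTX015 difference in tumours minus that in cultures passed for Ifih1 (1.09, with both treated means under background), Ddx58 (0.78, 0.96 and -0.43 for its 3 probe sets), Tlr3 (0.98 and 0.64), Zbp1 (-0.45) and Irf3 (-0.44). The OTX015 difference minus the guadecitabine difference in tumours passed for Ddx58 (-0.56 and -0.54 for 2 probe sets) and Zbp1 (-0.68).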

How the results depend on the processing

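Outside the fits that leave out 1 array, 1070 single results were recomputed. Of these, 986 kept their side of the threshold, 38 lost a call and 39 gained one. A further 7 turned direction with a call in at least 1 of the 2 fits compared. Of the 986, 57 changed sign without a call either way, and the rest kept their direction. Of 20 probe sets, the number called with dim ones left out was 3 in cultures, 1 in OTX015 tumours, 4 for control tumours against control cultures, 4 for OTX015 in tumours against cultures and 0 for OTX015 against guadecitabine, fewer probe sets being tested. On deposited values it was 14 in OTX015 tumours and 10 for OTX015 against guadecitabine, where the lower scale of OTX015 tumours enters. Of all probe sets, 59.4% and 30.3% were called in these 2 settings. No share over all probe sets is given for the other settings here, so their counts cannot be read as particular to these genes. At an adjusted p under 0.01 the number of probe sets called was 4 in OTX015 tumours and 5 for tumours against cultures. With the mean of probe sets per gene, at an adjusted p under 0.05, 3 of 10 genes were called for tumours against cultures. By brightest probe set 5 of 10 genes were called there. The fit of all 6 groups called 2 for guadecitabine, with no share over all probe sets given beside it, and the cause was not tested. Without 1 array, counts ran from 6 to 7 (OTX015 cultures), 5 to 7 (OTX015 tumours), 0 to 0 (guadecitabine), 10 to 12 (control tumours against cultures), 5 to 10 (tumours against cultures) and 2 to 4 (OTX015 against guadecitabine), with no called result turned in 116 fits. Turned in direction on deposited values of OTX015 tumours were Zbp1 1419604_PM_at (-0.163), Irf3 1416898_PM_a_at (-0.192) and Irf3 1438721_PM_a_at (-0.184). With the mean of probe sets Adar gave 0.16 in OTX015 tumours and -0.143 in control tumours against cultures. With the other control tumours, Irf3 1438721_PM_a_at gave 0.054 and Adar 1439276_PM_at 1.608 against cultures; the cause was not tested. The replicate block gave 7, 5 and 0 calls for OTX015 cultures, OTX015 tumours and guadecitabine tumours. Deviations of same-numbered samples correlated from -0.0997 to 0.21, -0.519 to 0.464 and -0.583 to 0.0662, which neither shows a pairing nor excludes one. The block ended the calls of Irf3 (-0.25, limma, adjusted p = 0.0928) and Adar 1425405_PM_a_at (0.247, limma, adjusted p = 0.0693) in OTX015 tumours. In OTX015 cultures it added a call of Adar 1425405_PM_a_at (-0.25, limma, adjusted p = 0.0488), opposite in direction to the brightest Adar probe set. Without 5 arrays of low spread, chosen after seeing the data, counts were 7 in OTX015 tumours, 0 for guadecitabine, 12 for control tumours against cultures, 9 for OTX015 in tumours against cultures and 2 for OTX015 against guadecitabine, the last without Ddx58 1436562_PM_at. Relations with Ifih1 stayed at 0 passing under every alternative run. Signals under background limit Ifih1, Dhx58, Zbp1 and Eif2ak2 most.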
